A study of Mus musculus with 70 samples.

Results

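The 81 genes described here encode the proteins of the cytoplasmic ribosome of the mouse. They are the rows, 81 of the 23078 in the gene table, whose symbol is Rpl or Rps followed by a number and at most one of the letters a, l or x, together with Rplp0, Rplp1, Rplp2, Rpsa and the paralog Rpl22l1. Of these, 31 belong to the small subunit and 50 to the large subunit. They lie on 19 chromosomes, with 4 of them on X. By its gene ID, the row with the symbol Rpl24 belongs to another gene, as described below.

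Every library came from the dorsal cerebral cortex of wild-type C57Bl/6 mice that carry a GFP reporter, and all are labelled female. Neural stem cells (NSC) were sorted for GFP from Hes5::GFP animals in 10 groups, one for each day from E10.5 to E18.5 and one for postnatal day 1 (PN). Basal progenitors (BP, 8 groups from E12.5) and newborn neurons (NBN, 5 groups from E15.5) both came from Tbr2::GFP animals, and the labels do not say how these 2 were told apart. The 70 libraries form 23 groups of 2 to 4, and the labels do not say whether replicates are separate animals or pools, so the p-values measure the spread between libraries, which may be partly technical. One PN library has a title that places it with the NSC and a cell type field that says basal progenitor. It was kept with its title as PN NSC replicate 3. Its NSC markers summed to 11209 TPM, against 11030 and 9989 TPM in the other 2 PN NSC libraries and 620 and 657 TPM in the PN BP libraries.

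A ribosome contains one copy of nearly every ribosomal protein, the stalk proteins being the known exception, and the mRNAs of these proteins are among the most abundant in growing cells. Many of them begin with a tract of pyrimidines next to the cap, the 5′ terminal oligopyrimidine or TOP motif, through which their translation is controlled by mTOR and Larp1. In the embryonic cortex the NSC divide in the ventricular zone, the BP divide away from the ventricle, and the NBN leave the cell cycle.

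All levels are in TPM, a unit that corrects the abundance of transcripts for their length and for the size of the library, so that a gene can rise only if others fall. Within each library the sum is fixed, and fewer cells of a type and less RNA per cell cannot be told apart in bulk samples. In the sorted groups the markers of each labelled cell type were present. NSC markers (Hes5, Fabp7, Vim and 5 others) summed to 1492 to 11665 TPM in NSC from E12.5 on, 474 to 949 TPM in BP and 214 to 458 TPM in NBN. Neuronal markers (Tubb3, Dcx and 5 others) summed to 2905 to 5844 TPM in BP and 4874 to 7779 TPM in NBN, and to 388 to 4750 TPM in the NSC libraries. BP markers (Eomes, Neurog2 and 4 others) summed to 1037 to 2067 TPM in BP and to 149 to 2039 TPM in NSC, so RNA of these markers was present in both gates.

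The first bases of the transcripts are shown for the genes that lie at the 2 ends of the early NSC comparison described below, and for the 2 paralog pairs whose balance differed most between cell types. Each line gives 30 bases before and 20 bases from the start that RefSeq annotates on GRCm38.p6, read 5′ to 3′ on the gene's strand. Capitals mark the longest run of at least 6 C or T that overlaps the 5 bases before or the 10 bases after the start. Rpl22 and Rps27l each have another annotated start, not shown, where no such run was found.
Rpsa (chr9:120127736-120127785, plus strand): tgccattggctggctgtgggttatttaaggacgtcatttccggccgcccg
Rps2 (chr17:24720033-24720082, plus strand): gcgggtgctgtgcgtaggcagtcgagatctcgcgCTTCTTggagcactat
Rpl14 (chr9:120571487-120571536, plus strand): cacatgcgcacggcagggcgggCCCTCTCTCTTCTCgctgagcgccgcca
Rps12 (chr10:23787190-23787239, minus strand): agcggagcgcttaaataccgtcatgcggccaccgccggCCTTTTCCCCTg
Rps13 (chr7:116334171-116334220, minus strand): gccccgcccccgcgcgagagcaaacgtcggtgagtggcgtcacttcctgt
Rplp2 (chr7:141447621-141447670, plus strand): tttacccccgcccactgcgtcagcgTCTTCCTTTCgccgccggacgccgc
Rpl13 (chr8:123102320-123102369, plus strand): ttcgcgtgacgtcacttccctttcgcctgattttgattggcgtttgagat
Rpl22 (chr4:152325696-152325745, plus strand): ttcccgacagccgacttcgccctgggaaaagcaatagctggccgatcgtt
Rpl22l1 (chr3:28805478-28805527, plus strand): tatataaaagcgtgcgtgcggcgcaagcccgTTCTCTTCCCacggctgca
Rps27 (chr3:90213629-90213678, minus strand): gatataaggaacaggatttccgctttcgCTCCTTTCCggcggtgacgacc
Rps27l (chr9:66946056-66946105, plus strand): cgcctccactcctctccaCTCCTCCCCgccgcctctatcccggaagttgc

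The RefSeq promoter table, which holds 300 bases around each start, matched 61 of the 81 genes. A pyrimidine run of this kind was present in 35 of those 61 genes, 57.4%, against 27.5% of the 16140 genes of the table with a promoter there. The 7-base sequence CCGGAAG, searched on both strands, was found in 25 of the 61 (41.0%) against 13.1% of all genes. AAGATGGC, searched likewise, was found in 5 (8.20%) against 3.62%, and TATAA in 18 (29.5%) against 24.3%. A match describes the letters only, and an annotated start may lie some bases from the start used in these cells. Both ends of the early comparison hold genes with and without a run: Rpl14 and Rps12, which fell, have one, and so does Rplp2, which did not pass the test. The 34 tested genes with a run had a median difference of -0.57 log2 units in that comparison, and the 24 without one had -0.53. For these medians the symbol Rpl24 was given the value of the row RPL24, described below.

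Together the 81 genes took up between 5.65% and 15.1% of the TPM of a library, with a median of 7.66% over the 70. The share was highest in the youngest NSC. At E10.5 the 3 NSC libraries held 15.1%, 14.2% and 12.9%, a mean of 14.1% ± 1.09 (SD, n = 3), and at E11.5 they held 10.1% to 12.4%. At E12.5 replicate 3 stood at 13.7% and the other 2 at 10.3% and 10.7%. From E13.5 to E15.5 the NSC held 7.51% to 10.4%, at E16.5 6.60% to 8.36%, and from E17.5 to PN 6.84% to 8.86%. The lowest NSC library was thus one of E16.5.

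**Figure D1:**
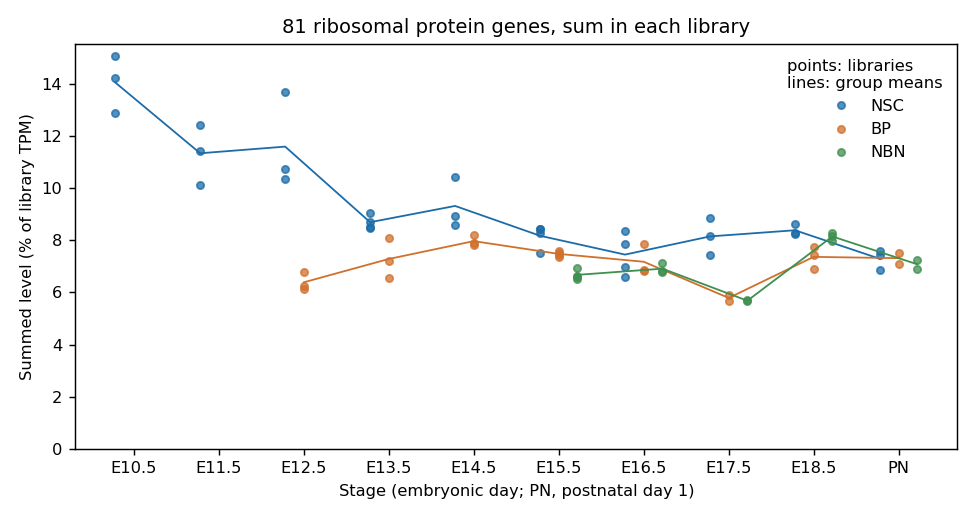
Summed level of the 81 ribosomal protein genes, as a percentage of the TPM of each library (y axis), by stage (x axis, embryonic day or PN) for NSC, BP and NBN. Points are libraries and lines join group means, and the NSC fall from 14.1% at E10.5 to 8.69% at E13.5 while BP and NBN both dip at E17.5, to 5.79% and 5.68%.

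The BP followed another course. They began at 6.13% to 6.79% at E12.5, when the NSC stood at 10.3% to 13.7%, and reached 7.81% to 8.18% at E14.5. By PN the 2 BP libraries held 7.11% and 7.52%, inside or next to the NSC range of 6.84% to 7.59% at that stage. In NBN the share was 6.51% to 6.95% at E15.5, 7.98% to 8.27% at E18.5 and 6.90% to 7.25% at PN.

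Of the 81 genes, 77 had a mean of at least 20 TPM over the libraries. Their means ran from 174 TPM for Rps27l to 2061 TPM for Rplp0, the stalk protein that anchors the P1 and P2 dimers, with a median of 999 TPM. Rpl7 (1965 TPM) and Rpl32 (1881 TPM) came next at the top, and Rps20 (193 TPM) and Rpl12 (236 TPM) at the bottom. Since TPM is per length, these are levels that can be set beside each other, with the limit that reads of near-identical copies may have been divided between rows. In the annotation, 29 of the 81 genes have at least one copy in the table that holds 5% or more of their 50-base words, the length of the reads. There are 57 such copies in all, and 43 genes share no word with another gene of the table. Rpl12 has 2 of these copies, with a summed mean of 704 TPM against its own 236 TPM, and Rps20 and Rps27l have none.

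Of the genes at low levels, 3 are the copies known from testis or muscle. Rpl10l, a retrogene of Rpl10, was at 0 in 56 of 70 libraries and never above 0.258 TPM. Rpl3l, the muscle form of Rpl3, was at 0 in 52 libraries and never above 0.307 TPM. Rpl39l reached at most 1.65 TPM. These 3 were under a mean of 1 TPM in every group and were not tested, which leaves 78. The fourth low row carries the symbol Rpl24 but the gene ID ENSMUSG00000022601, which GENCODE M21 gives to its neighbour Zbtb11, a zinc finger gene. The other 80 IDs have the same name in both. This row held 3.92 to 19.1 TPM, a mean of 11.2 TPM, and its values cannot be taken as those of Rpl24. The ID that GENCODE names Rpl24, a protein of the large subunit, stands in a row spelled RPL24, which the symbol rule does not take. RPL24 held 662 to 1422 TPM with a mean of 895 TPM, a level like that of the other members. The low row is kept in the counts below because the rule takes it, and where it was called this is said.

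The 77 genes varied together. Over the 23 group means, the correlation of each with the mean of the rest was 0.94 at the median and 0.9 or above for 60 of them. All points share the constraint that TPM sums to a fixed total, and the correlations are given as a description. In 60 of the 77 the highest group was NSC E10.5, and in the other 17 it was NSC E12.5. The lowest group was NBN E17.5 for 40, BP E17.5 for 30, BP E12.5 for 6 and NSC PN for 1. The ratio of the highest to the lowest group mean ran from 1.84 for Rpl34 to 5.05 for Rps2, with a median of 2.54. The 5 genes least like the rest were Rpl34 (correlation 0.76), Rpl10 (0.77), Rpl36 (0.77), Rpl38 (0.78) and Rps7 (0.78).

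**Figure D2:**
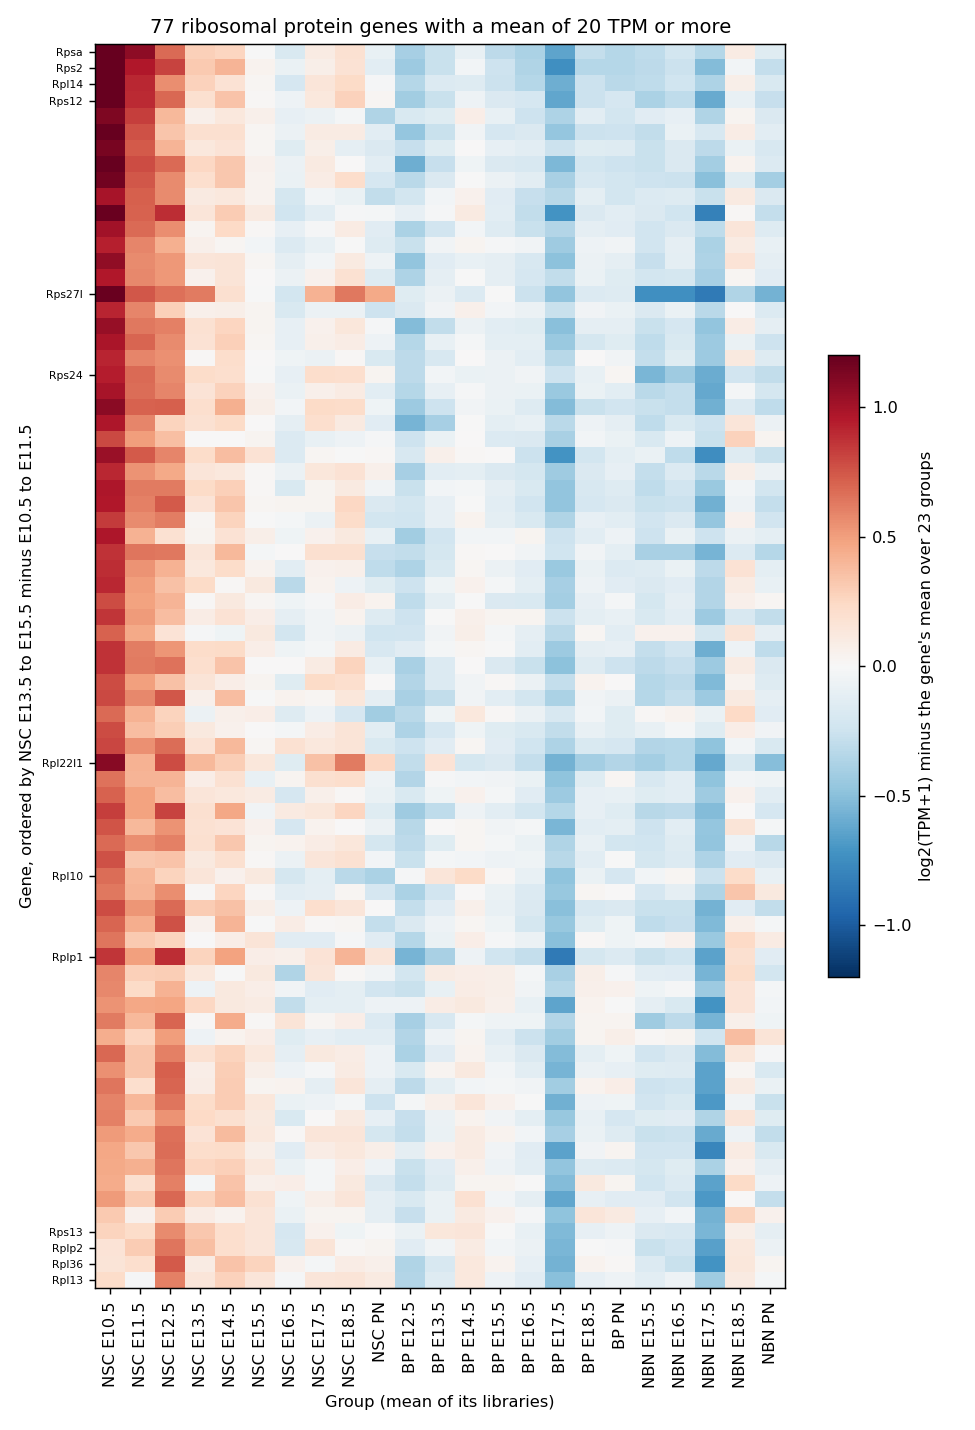
Each row is one of the 77 ribosomal protein genes with a mean of 20 TPM or more and each column one of the 23 groups, and the colour gives the group mean of log2(TPM+1) minus the mean of the gene over the groups. Rows are ordered by the early NSC difference, with a few genes labelled, Rpsa at the top and Rpl13 at the bottom, and the red columns at the left (NSC E10.5 to E12.5) and the blue columns at BP E17.5 and NBN E17.5 run through nearly all rows.

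To ask how the genes changed while the NSC pass from expansion to neurogenesis, the NSC of E13.5 to E15.5 (11 libraries) were compared with those of E10.5 and E11.5 (6 libraries), by limma on log2(TPM+1) over 15508 genes with Benjamini-Hochberg adjustment. At an adjusted p under 0.05, 72 of the 78 genes fell, 1 rose and 5 did not pass. The 1 that rose was the row with the Zbtb11 ID, and with RPL24 in its place 73 fell and 0 rose (also 0 at an unadjusted p under 0.05): RPL24 went from 1078 to 1422 TPM in the early libraries to 821 to 990 TPM (-0.45 ± 0.06, adjusted p = 1.7e-09). Among all 15508 genes, 29.6% fell and 47.5% rose. The median difference of the 78 was -0.55 log2 units against 0.14 for all genes. Scaling the libraries by median ratios moved the median of all genes to -0.05, and relative to all genes the 78 stood 0.70 lower as deposited (-0.698), 0.77 lower (-0.766) after that scaling, and 0.19 lower (-0.187) after quantile normalization. Of all calls in this comparison 61.7% were higher as deposited and 46.1% after median ratio scaling, while for the 78 genes it was 1.37% and 1.28%.

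The fall was steepest for Rpsa and Rps2, the only genes of the 78 that were past the test and changed by at least 1 log2 unit, as 5.26% of all genes did downwards. Rpsa, a protein of the 40S head also known as the 37/67-kDa laminin receptor, measured 1881, 1762 and 1585 TPM at E10.5 and 1488, 1236 and 1627 TPM at E11.5. From E13.5 to E15.5 its 11 libraries lay between 628 and 960 TPM, below every early library, a difference of -1.03 ± 0.06 log2 units (SE, adjusted p = 3e-23). Rpsa has 1 near-identical copy in the table, with a mean of 837 TPM against 733 TPM for Rpsa itself. Rps2, a protein at the entry of the mRNA channel, measured 3253, 3025 and 2707 TPM at E10.5 and 2047, 1599 and 2173 TPM at E11.5. Its later 11 libraries lay between 920 and 1514 TPM, and the groups did not overlap either (-1.03 ± 0.05, adjusted p = 2e-23). Rps2 shares 56.4% of its 50-base words with other genes of the table and has 8 copies there. With the TPM of these copies added, the difference was -1.01.

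Rpl14 went from a mean of 1864 to 937 TPM (-0.98 ± 0.06, adjusted p = 2.8e-21) and Rps12 from 2001 to 1030 TPM (-0.94 ± 0.06, adjusted p = 4.6e-20), both without overlap between the libraries. Rps12 has 1 near-identical copy, with a mean of 964 TPM, and Rpl14 has none. At the other end, 4 of the genes that did not pass were Rps13 (-0.02 ± 0.06), Rplp2 (0.00 ± 0.06), Rpl36 (0.06 ± 0.06) and Rpl13 (0.08 ± 0.05), with adjusted p-values between 0.158 and 0.953. Rplp2, one of the acidic stalk proteins, measured 967 to 1130 TPM at E10.5 and 955 to 1278 TPM from E13.5 to E15.5, so that these libraries overlapped. The sign of the last 3 turned under median ratio scaling, to -0.26 for Rplp2, -0.21 for Rpl36 and -0.18 for Rpl13. Taken from the log2(TPM+1) difference, with stages weighted equally, the later level was 49.1% of the early one for Rps2 and 100.3% for Rplp2.

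**Figure D3:**
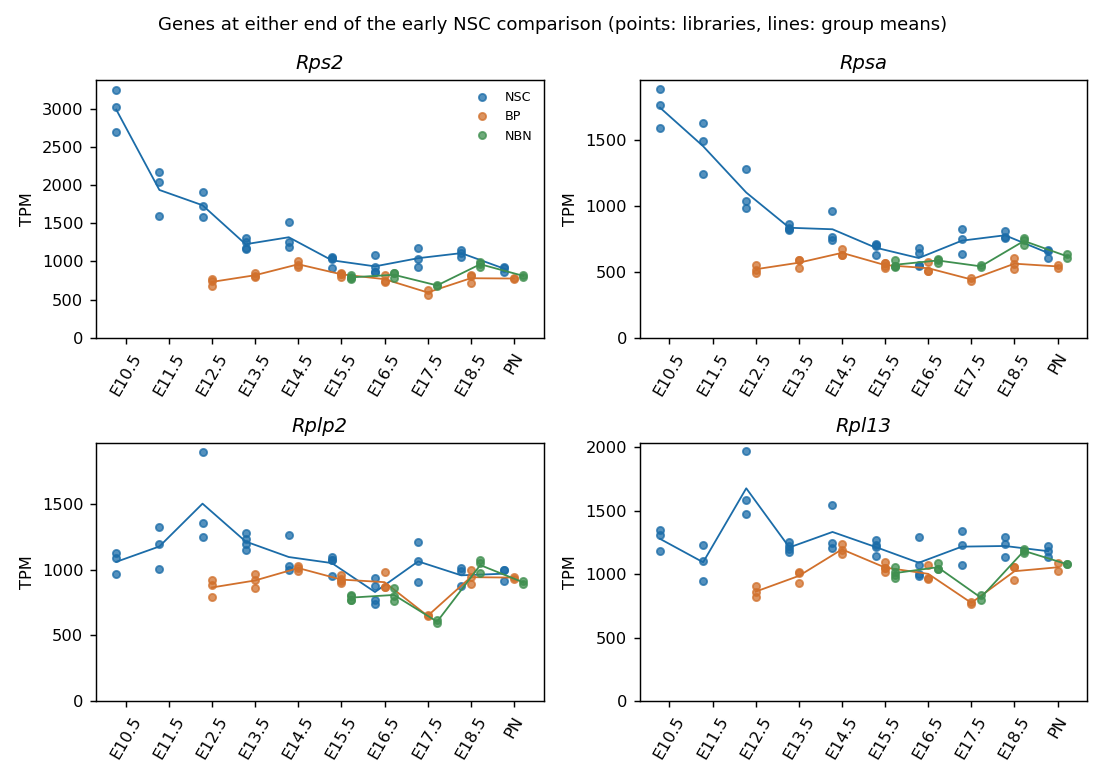
TPM in each library (points) and group means (lines) by stage for Rps2 and Rpsa, which fell furthest in the early NSC comparison, and for Rplp2 and Rpl13, which did not pass it. Rps2 starts at 2707 to 3253 TPM in NSC E10.5, while Rplp2 and Rpl13 are highest in NSC E12.5, where replicate 3 reaches 1902 and 1972 TPM.

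Genes of every role listed fell, in a comparison in which 72 of the 78 genes fell. Among all genes 29.6% fell and 47.5% rose. In the small subunit 30 of 31 fell (median -0.56), and in the large subunit 42 of 47 fell and the row with the Zbtb11 ID rose (median -0.52). Both proteins of the 5S particle, Rpl5 and Rpl11, which can bind the p53 regulator Mdm2, fell. So did all 18 genes mutated in Diamond-Blackfan anaemia, an inherited failure of red cell formation, by 0.14 to 0.76 log2 units (-0.136 to -0.76), and all 7 genes at the peptide exit tunnel. Of the 3 stalk genes Rplp0 and Rplp1 fell. The 29 genes with near-identical copies had a median of -0.58 and the 49 tested genes without had -0.54.

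Day by day, the fall came in steps. From E10.5 to E11.5, 50 of 78 genes had every E11.5 library below every E10.5 library, against 19.4% of all genes. From E11.5 to E12.5 it was 4 of 78, against 30.5%. From E12.5 to E13.5, 64 of 78 lay below without overlap, against 9.86% of all genes. The E10.5 and E11.5 libraries also carried RNA of red cells: 9 erythroid genes, with the embryonic globin Hbb-y highest, summed to 1681 to 9566 TPM there and to 26.6 to 420 TPM from E13.5 to E15.5. Within E10.5 the 3 libraries with 9566, 6120 and 3733 TPM of these genes had ribosomal shares of 15.1%, 14.2% and 12.9%. Within E11.5 those with 8836, 2483 and 1681 TPM had 12.4%, 11.4% and 10.1%, the same order. Within E12.5 those with 250, 220 and 75.6 TPM had 10.7%, 10.3% and 13.7%, so that the library with the least had the highest share. Neuronal markers went the other way, from 388 to 2692 TPM in the early libraries to 1947 to 4750 TPM at E13.5 to E15.5, and 7 cell cycle genes from 1555 to 2079 TPM to 599 to 1649 TPM. The sum of the mitochondrially encoded genes rose without overlap, from 24635 to 44955 TPM early to 50915 to 68911 TPM later. The part of red cells, neuronal cells, cycling cells and mitochondrial RNA in the fall was not tested.

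Genes of the same pathway outside the rule were counted in the same comparison, in which 29.6% of all genes fell and 47.5% rose. All 5 ribosomal genes whose names the rule does not take fell, among them Rps3a1 (-0.80 ± 0.05, adjusted p = 4.2e-19) and Fau (-0.13 ± 0.06, adjusted p = 0.037), which encodes eS30 as a fusion to a ubiquitin-like protein. Of 34 ribosome assembly genes 31 fell and 3 did not pass, with a median of -0.54. Npm1, the nucleolar chaperone, was at 1357 to 3700 TPM early and at 869 to 1512 TPM later (-1.08 ± 0.07), and Gar1, of the pseudouridylation complex, at 66.1 to 111 and 33.5 to 51.2 TPM (-1.01 ± 0.07). Of 19 elongation factors and other TOP genes 16 fell, led by Eef1d (-1.05 ± 0.05), while Tpt1 measured 3330 to 3617 and 3061 to 3907 TPM and did not pass. The mitochondrial ribosome, a separate machine made of 76 other proteins, had 50 genes lower and 13 higher with a median of -0.20. Among 16 genes of RNA polymerase I and its activators 6 fell and 6 rose, and this list and the mTOR axis had shares nearer to those of all genes. Those that rose included Mycn (0.47 ± 0.06) and Myc (0.84 ± 0.13), activators of ribosome synthesis, whose later libraries spanned 88.3 to 128 and 13.1 to 21.4 TPM. In the mTOR axis 9 of 15 rose and 2 fell, one of which was Eif4ebp1, a repressor of cap-dependent translation, at 15.2 to 59.5 TPM early and 4.17 to 13.0 TPM later (-2.01 ± 0.18, adjusted p = 1.1e-14).

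A second, shallower decline separated NSC of E17.5 to PN (9 libraries) from those of E13.5 to E15.5 (11 libraries), in the period in which glia begin to form. In limma with adjusted p under 0.05, 53 of 78 genes fell and 2 rose, against 25% and 45.1% of all genes. The median was -0.14 against 0.12 for all genes. After quantile normalization 21 fell and 10 rose, and the 78 genes no longer stood below the median of all genes (0.03 above it). Of the calls over all genes 42.6% were then higher, against 64.4% as deposited. For the 78 genes it was 32.3% against 3.64%. Rpl10, the X-linked protein near the peptidyl transferase centre, fell furthest, from a mean of 1562 to 1204 TPM (-0.38 ± 0.04, adjusted p = 3.2e-12): its 11 earlier libraries lay at 1429 to 1658 TPM and its 9 later ones at 1044 to 1418 TPM, with no overlap. Rpl27 (-0.33), Rps27 (-0.25) and Rps7 (-0.25) followed. Rpl10, Rpl27 and Rps27 have 1 near-identical copy each in the table and Rps7 has 2. Rps27l rose, by 0.23 ± 0.08 (adjusted p = 0.006; 0.12 and adjusted p = 0.27 under median ratio scaling), and the other row that rose was the one with the Zbtb11 ID (0.28 ± 0.08). RPL24 did not pass (-0.11 ± 0.05, adjusted p = 0.057). The decline was not steady. From E16.5 to E17.5 the median log2 ratio of group means was 0.12, with 8 of 78 genes above without overlap (27.7% of all genes), and from E17.5 to E18.5 it was 0.04 (0.044), with 8 above (19.1% of all genes). In the last step it was -0.20, and 55 of 78 genes had every PN library below every E18.5 library, against 21.9% of all genes. Markers of the late NSC libraries differed too, since astroglial genes summed to 990 to 4689 TPM there and 142 to 275 TPM at E13.5 to E15.5. Oligodendrocyte precursor genes summed to 390 to 1730 TPM late and 5.16 to 46.2 TPM before, and dissociation stress genes to 367 to 1324 and 214 to 552 TPM. Cell cycle genes were at 1212 to 2224 TPM late and 599 to 1649 TPM before, and neuronal markers at 762 to 1844 and 1947 to 4750 TPM. The part of these markers in the result was not tested.

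In BP the same 2 windows gave a similar count, with 52 of 78 lower and 1 higher, the row with the Zbtb11 ID, in late BP (7 libraries) than in BP of E13.5 to E15.5 (10 libraries). Over all genes 18.4% were lower and 41.6% higher. The median was -0.17 for the ribosomal genes and 0.12 for all genes. Rpl10 was again the gene that fell furthest, from a mean of 1595 to 1227 TPM (-0.38 ± 0.04, adjusted p = 1.7e-10). Rpl29 (-0.37), Rpl22l1 (-0.37) and Rpl41 (-0.33) came next, and Rplp0, Rps15 and Rpl35a lay within 0.02 of 0. This count rested on 1 stage. Without the 2 BP libraries of E17.5, 11 genes fell and the median was -0.05. The shares of all genes without them are not given here.

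At E17.5 both Tbr2::GFP populations stood apart. The BP libraries held 5.67% and 5.90% and the NBN libraries 5.65% and 5.71%, the 4 lowest shares of the series, while the 3 NSC libraries of that day held 7.42% to 8.86%. Between E16.5 and E17.5, 73 of 78 genes in BP fell below every E16.5 library, against 15.2% of all genes, and 76 of 78 did in NBN, against 20.4%. A day later the order turned: 76 of 78 were above every E17.5 library in BP E18.5, against 19.3%, and 77 of 78 in NBN E18.5, against 20.5%. After median ratio scaling the dip was still there, with sums equal to 4.96% and 5.26% of the total in BP and 5.47% and 5.64% in NBN. In BP, Rps2 measured 735 to 821 TPM at E16.5, 557 and 629 at E17.5, and 716 to 817 at E18.5. In NBN it measured 777 to 851, then 676 and 696, then 933 to 998 TPM. The 4 libraries of E17.5 also listed more genes above 0, 17777 to 19465, than the BP and NBN libraries of E16.5 and E18.5, 16601 to 17491. At PN the BP libraries listed 17686 and 17705 and the NBN libraries 17434 and 17810, with ribosomal shares of 6.90% to 7.52%. What part the number of listed genes had in the dip was not tested, and with 2 libraries each the E17.5 groups are small.

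The NBN counts also moved with that stage. NBN of E17.5 to PN (7 libraries) against E15.5 and E16.5 (7 libraries) gave 6 of 78 genes higher, one of them the row with the Zbtb11 ID, and 2 lower, below the 19.2% and 15.3% of all genes, with a median of 0.03 for both. Rplp0 (0.18 ± 0.06, adjusted p = 0.009) was among those that rose, and Rpl29 (-0.20 ± 0.06, adjusted p = 0.012) and Rpl5 (-0.15 ± 0.05, adjusted p = 0.022) fell. Without the E17.5 libraries 40 genes rose and 0 fell in limma (47 and 0 at an unadjusted p under 0.05), with a median of 0.16. The 19.2% and 15.3% are from the comparison with E17.5, and the shares of all genes without it are not given here. After E18.5 the level went down again: 72 of 78 genes had both PN libraries below every E18.5 library, against 19.6% of all genes.

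**Figure D4:**
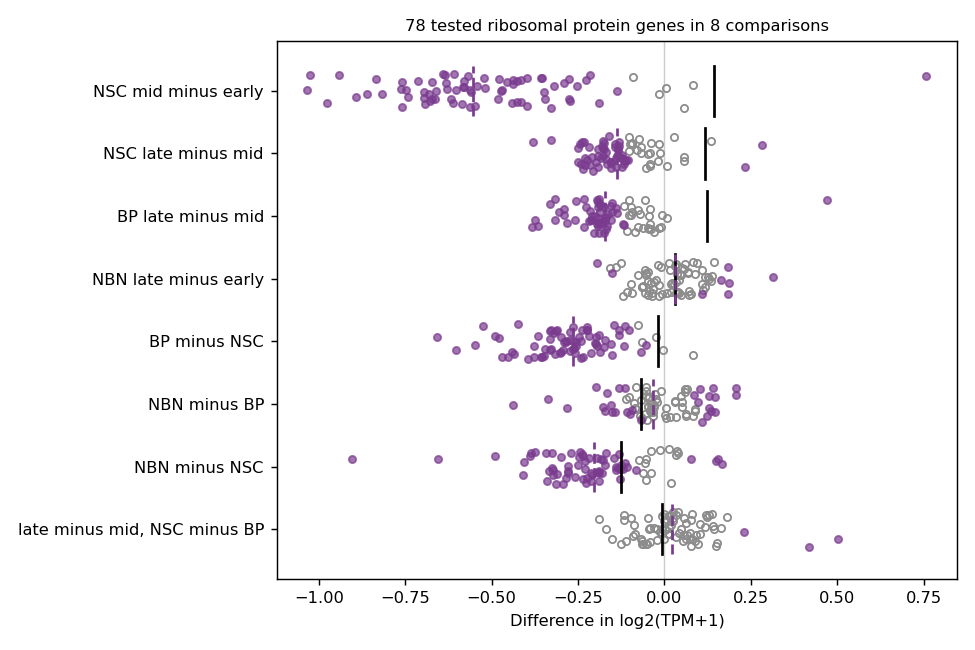
Difference in log2(TPM+1) (x axis) of the 78 tested ribosomal protein genes in the 8 comparisons (y axis). Filled points passed an adjusted p under 0.05 and open points did not, the dashed line is the median of the 78 and the solid line the median of all 15508 genes, and the early NSC row lies furthest to the left, with a median of -0.55. The point at 0.76 there is the row with the Zbtb11 ID.

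Cell types were compared over the stages they share, each stage with equal weight. Over the 8 stages from E12.5 to PN, 73 of 78 genes were lower in BP (23 libraries) than in NSC (27 libraries) and none was higher, by limma with adjusted p under 0.05 (also 0 higher at an unadjusted p under 0.05), while 40.7% of all genes were lower and 35.5% higher. The median was -0.26 against -0.02 for all genes. The 78 genes stayed below all genes by 0.24 (-0.242) after median ratio scaling and by 0.22 (-0.219) after quantile normalization. With the latter 65 were lower and 3 higher, and of the calls over all genes 56.9% were higher. In this comparison Rplp1, which pairs with Rplp2 on the stalk, was lowest, with a mean of 965 TPM in BP and 1535 TPM in NSC (-0.66 ± 0.04, adjusted p = 3.1e-21). Rps2 was at 783 and 1162 TPM (-0.55 ± 0.03, adjusted p = 2.1e-22). At the other end Rpl10 stood at 1408 and 1413 TPM (0.00 ± 0.03, adjusted p = 0.931) and Rps7 at 557 and 570 TPM (-0.02 ± 0.03, adjusted p = 0.40). BP held less of the cell cycle genes than NSC at these stages, 284 to 724 against 562 to 2224 TPM, and the part of this in the difference was not tested. Of the 34 assembly genes 32 were lower in BP and 1 higher, and of the 76 mitochondrial ribosomal genes 58 were lower and 3 higher.

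The gap between BP and NSC depended on the day. The median log2 ratio of group means over the 78 genes was -0.88 at E12.5, -0.24 at E13.5, -0.23 at E14.5, -0.13 at E15.5, -0.06 at E16.5, -0.50 at E17.5, -0.18 at E18.5 and 0.00 (-0.00198) at PN. At E12.5 every BP library was below every NSC library for 77 of 78 genes, against 23.2% of all genes, and at E17.5 for 77 of 78, against 38.3%. At E16.5 this held for 7 of 78, beside 28% of all genes, and at PN for 15 (43.1% of all genes), with 19 of 78 above (29.7% of all genes). Without the E12.5 libraries the median over the other stages was -0.19 and 66 genes were lower, and without those of E17.5 it was -0.24 with 69 lower. Shares of all genes are not given for either of these.

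Between NBN and BP the genes went in both directions. Over the 5 shared stages, with 14 libraries each, 13 of 78 genes were higher and 16 lower in NBN, against 27.9% and 41.9% of all genes, with a median of -0.03 against -0.07. The direction of the median depended on the scaling. It was 0.07 after median ratio scaling, with 24 higher and 3 lower, and -0.08 after quantile normalization, with 12 higher and 40 lower. Of the calls over all genes 40% were higher as deposited, 51.8% after median ratio scaling and 48% after quantile normalization. For the 78 genes it was 44.8%, 88.9% and 23.1%. Among the named genes, Rps24 (-0.34 ± 0.05, adjusted p = 2.7e-07), a gene with several annotated forms of its last exons, was at a mean of 1310 TPM in NBN and 1651 TPM in BP, and Rps9 (-0.28 ± 0.04, adjusted p = 6.3e-08) at 1337 and 1624 TPM. On the other side Rpl38, which in mice is needed for normal translation of Hox mRNAs, was at 1028 and 889 TPM (0.21 ± 0.05, adjusted p = 7.7e-05) and Rpsa at 605 and 523 TPM (0.21 ± 0.04, adjusted p = 3.1e-05). By stage, NBN lay below BP without overlap for 54 of 78 genes at E15.5 (28.5% of all genes) and above it for 50 of 78 at E18.5 (21.5% of all genes).

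Against NSC of the same 5 stages (17 libraries), 61 of 78 genes were lower in NBN and 4 higher, while 49.6% of all genes were lower and 31.4% higher. The median was -0.20 against -0.12 for all genes, and under median ratio scaling, where 25 were lower and 10 higher, it was -0.05. Of the calls over all genes 50% were then higher, against 38.8% as deposited. For the 78 genes it was 28.6% against 6.15%. The 4 higher genes were Rps7 (0.17 ± 0.03), Rpl10 (0.16 ± 0.03), Rpl38 (0.15 ± 0.04) and Rpl15 (0.08 ± 0.03, adjusted p = 0.022), with a mean of 597 TPM in NBN and 534 TPM in NSC for Rps7. Lowest were Rps27l, Rpl22l1, Rps24 (-0.49 ± 0.05) and Rps12 (-0.41 ± 0.04).

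The paralogs Rpl22l1 and Rps27l correlated with the other genes at 0.87 and 0.84 over the 23 group means, below the median of 0.94. Rpl22l1 can take the place of Rpl22 in the ribosome, and Rps27l, a target of p53, that of Rps27. Both were lower in BP than in NSC, as were 73 of the 78 genes and 40.7% of all genes. Their differences in limma were -0.60 ± 0.05 (adjusted p = 4.8e-16) and -0.52 ± 0.05 (adjusted p = 4e-14), among the 4 largest there. In NBN Rps27l was lower again than in BP (-0.44 ± 0.07, adjusted p = 6.6e-08; mean 102 and 139 TPM), whereas Rpl22l1 was at 213 and 221 TPM (-0.06 ± 0.07, adjusted p = 0.468). Against NSC the NBN values were -0.90 ± 0.06 for Rps27l and -0.66 ± 0.06 for Rpl22l1. None of these 4 symbols but Rps27 has a near-identical copy in the table.

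In NSC both paralogs were lowest at E16.5 and higher after it. Rpl22l1 in NSC measured 610, 648 and 553 TPM at E10.5, 208 to 322 TPM in the 4 libraries of E16.5, and 463, 392 and 455 TPM at E18.5. Rps27l measured 386, 376 and 331 TPM at E10.5, 114 to 167 TPM at E16.5, and 257, 224 and 263 TPM at E18.5. In both cases the E18.5 libraries lay above all of E16.5. This pair of stages is not among the 8 comparisons, and no share of all genes is given for it. From the middle to the late window of NSC, Rps27l rose (0.23) but Rpl22l1 did not pass (0.14). In BP the late values were 184 to 226 TPM for Rpl22l1 and 113 to 161 TPM for Rps27l, below all late NSC libraries.

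**Figure D5:**
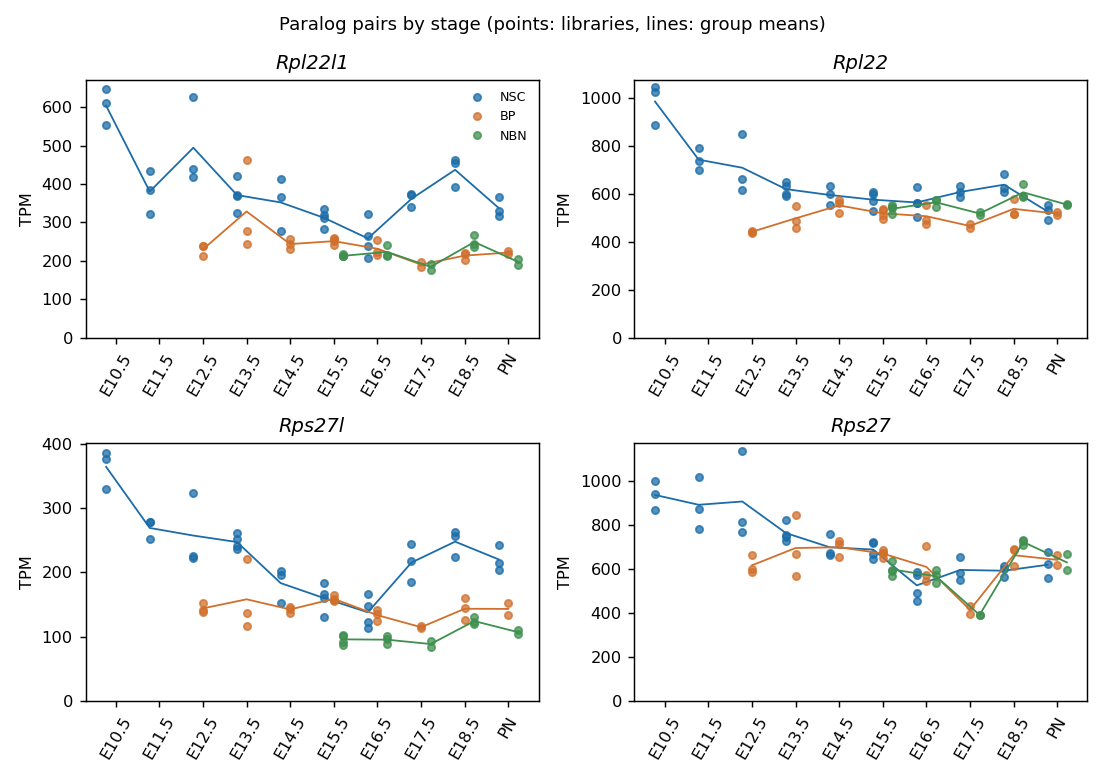
TPM in each library (points) and group means (lines) by stage for the pairs Rpl22l1 and Rpl22, and Rps27l and Rps27. In NSC the means of Rpl22l1 and Rps27l are 258 and 138 TPM at E16.5 and 437 and 248 TPM at E18.5, above all BP and NBN libraries of E18.5.

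A test of whether the change from the middle to the late window differed between NSC and BP gave 3 genes of 78, all with the higher change in NSC, against 27.4% of all genes in that direction and 24.7% in the other. They were Rpl22l1 (0.50 ± 0.12, adjusted p = 0.00025), Rps27l (0.42 ± 0.11, adjusted p = 0.0017) and Rpl30 (0.23 ± 0.09, adjusted p = 0.023), in limma over all genes. BP E13.5 replicate 1 was high for both paralogs, at 463 TPM against 244 and 278 for Rpl22l1 and 221 against 117 and 137 for Rps27l. Without it the differences were 0.41 and 0.33 and still passed, and Rpl30 did not (0.16, adjusted p = 0.065). Without E17.5, Rpl30 was at 0.05 (adjusted p = 0.71), 20 of the 78 genes had the lower change in NSC, and the median over the 78 turned from 0.02 to -0.092. With array weights 13 genes had the higher and 4 the lower change in NSC. For these settings the shares of all genes are not given here.

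As a share of its pair, Rpl22l1 made up 36.7% to 42.1% of Rpl22l1 and Rpl22 in the 9 late NSC libraries, 27.6% to 30.1% in the 7 late BP libraries and 25.2% to 29.5% in the 7 late NBN libraries, so that NSC did not overlap with the others. In the middle window the NSC (33.5% to 41.3%) and BP (30.3% to 45.9%) ranges overlapped, the top BP value being E13.5 replicate 1. At E16.5 the BP libraries (31.3% to 31.5%) lay inside the NSC range (29.2% to 34.0%). For Rps27l the late shares were 24.0% to 30.5% in NSC, 16.9% to 22.3% in BP and 14.2% to 19.2% in NBN. In the middle window its NSC (16.3% to 25.7%) and BP (16.7% to 20.7%) ranges overlapped. At E15.5 the mean Rps27l share was 18.8% in NSC and 19.2% in BP. These shares do not depend on the scaling of the libraries. The Rps27 row shares 46.2% of its 50-base words with other genes of the table and has 1 copy there. That copy had a mean of 1080 TPM, against 666 TPM for Rps27, and is not counted in the Rps27l shares. Rpl39l, in contrast, never passed 0.182% of its pair with Rpl39.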

How the data were processed

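Gene levels were taken as the TPM values the authors deposited in one table for 70 libraries. Per the labels' protocols, RNA of sorted cells was made into TruSeq libraries and sequenced as single 50-base reads. Per the submitters' processing notes, kallisto 0.43.0 and the builds GRCm38.p2 and mm10 were used; no source used here gives the annotation. Near-identical copies can receive one another's reads, and read depth is not known from TPM. Each library summed to between 999999 and 1000001 TPM.

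Values were analysed as log2(TPM+1) with limma 3.58.1 in R 4.3.3: one mean per group, all 70 libraries, 47 residual degrees of freedom, a variance trend, only genes that averaged 1 TPM or more in some group, and Benjamini-Hochberg adjustment. Windows and cell types were contrasted with equal weight per stage. The fit was also run on simulated data with independent normal residuals and levels raised above those measured. That run does not bear on genes at low levels or on the fixed sum of TPM. Differences are on the log2(TPM+1) scale, which understates low genes. Genes named were the 4 lowest and 4 highest differences of each comparison, the 3 highest and 3 lowest levels, the 5 lowest correlations and the paralogs; the row with the symbol Rpl24, RPL24 and the pathway genes printed beside the members were chosen after their values were seen, and a gene that the rule names is not reported here. The members and lists were chosen with earlier results of these data known. Copies were found as shared 50-base words in GENCODE M21 transcripts. Deviations of same-numbered replicates correlated at -0.23 to 0.46, and at no stage with 3 or more pairs were all of them above 0.1, so the numbers were not taken as pairs.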

Additional observations from a re-analysis of the deposited data

Results flagged for a closer look

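In NSC E15.5 1 of the 4 libraries held a summed level of 7.51% of TPM, apart from the other 3 at 8.29% to 8.45%. In NBN E15.5 the Rpl22l1 share of its pair was 29.2% in 1 library and 28.1% to 28.2% in the other 3. In NSC E16.5 the Rps27l share of its pair was 22.5% in 1 library and 20.01% to 20.2% in the other 3. These 3 come from 15 sets of 4 libraries that were checked, and chance marks about 1 in 20 of such sets.

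The change from E13.5 to E15.5 towards E17.5 to PN differed between NSC and BP, by the interaction term in limma, for Rpl22l1 (0.50 log2 units, adjusted p = 0.00025), Rps27l (0.42, adjusted p = 0.0017) and Rpl30 (0.23, adjusted p = 0.023). The change was higher in NSC for all 3. Over all genes 27.4% had the higher and 24.7% the lower change in NSC. Rpl30 did not pass without BP E13.5 replicate 1 (0.16) or without the E17.5 libraries, as given above.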

How the results depend on the processing

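Leaving out the E10.5, E12.5 or E17.5 libraries, adding the copies and replacing the row with the symbol Rpl24 were chosen after seeing the data. Counts below are genes of 78 called higher or lower and medians are in log2 units. Shares of all genes are not given beside them. Median ratio scaling gave medians of -0.81 (NSC middle against early), -0.25 (NSC late against middle), -0.31 (BP late against middle), 0.068 (NBN against BP, the sign turned) and -0.053 (NBN against NSC), 1 higher in late against middle NSC, 1 higher and 1 lower in late NBN, 24 higher and 3 lower in NBN against BP, and 10 higher and 25 lower in NBN against NSC. The summed level was then 15.3% (12.7% as deposited) in NSC of E10.5 and E11.5 and 7.27% (7.94%) in late NSC. Quantile normalization gave 11 higher and a median of -0.23 in middle against early NSC, 10 higher and 21 lower in late NSC, 5 higher and 27 lower in late BP, 12 higher and 11 lower in late NBN, 3 higher in BP against NSC, 40 lower in NBN against BP, 7 higher in NBN against NSC, and 11 higher and 7 lower for the difference of changes.

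Array weights gave 18 higher and 9 lower in late NBN, 24 higher in NBN against BP, and 13 higher and 4 lower for the difference of changes. A fit of only the libraries compared gave 20 higher and 10 lower in late NBN, 21 higher and 25 lower in NBN against BP, and 5 higher and 1 lower for the difference of changes. Wider windows gave 32 lower in late NSC, 32 lower in late BP, 40 higher and 0 lower in late NBN (median 0.16; 0 lower also at an unadjusted p under 0.05), 4 lower for the difference of changes and, for cell types up to E16.5, 2 higher and 29 lower in NBN against BP and 1 higher in NBN against NSC. Cell types from E17.5 gave 1 higher in BP against NSC, 4 lower in NBN against BP and a median of 0.016 there, where the sign turned. The row RPL24 in place of the row with the symbol Rpl24 gave 0 higher in middle against early NSC, 1 higher in late NSC and 0 higher in late BP (0 in both comparisons with 0 also at an unadjusted p under 0.05). Copies added gave 3 higher in middle against early NSC. Without E10.5 there were 2 higher, with a median of -0.39. Without E17.5 there were 11 lower in late BP (median -0.053), 40 higher and 0 lower in late NBN (median 0.16), 7 higher in NBN against NSC, and 20 lower with a median of -0.092 for the difference of changes, whose sign turned. The cause of these shifts was not tested.

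Some named genes turned sign. In middle against early NSC these were Rpl13 (-0.18), Rpl36 (-0.21) and Rplp2 (-0.26) under median ratio scaling and -0.13, -0.18 and -0.24 with wider windows, and Rps13 (0.25) under quantile normalization. Quantile normalization also gave -0.060 for the row with the symbol Rpl24 in late NSC, 0.12 for Rpl35a in late BP, and 0.13 for Rpl10 and 0.065 for Rpl15 in BP against NSC. Rps7 was at 0.10 in BP against NSC from E17.5, and Rpl3 at -0.0037 in NBN against BP up to E16.5.

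With 1 library left out, the lower counts ranged from 71 to 73 in middle against early NSC, 41 to 58 in late NSC, 47 to 59 in late BP, 1 to 2 in late NBN, 72 to 75 in BP against NSC, 13 to 18 in NBN against BP, 59 to 62 in NBN against NSC and 0 to 1 for the difference of changes. The higher counts ranged from 1 to 2 in middle against early NSC, 2 to 7 in late NBN and 2 to 6 for the difference of changes, whose median ranged from -0.012 to 0.049 and was below 0 only without BP E13.5 replicate 1. Higher genes in late NBN numbered 2 without PN replicate 1 and 3 without E17.5 replicate 2, and 1 was lower without E16.5 replicate 2, E17.5 replicate 1 or PN replicate 2. Without NSC E11.5 replicate 3 there were 2 higher in middle against early NSC. For the difference of changes there were 6 higher without NSC E14.5 replicate 1, NSC E17.5 replicate 1 or BP E13.5 replicate 2, and 1 lower without NSC E14.5 replicate 2, NSC E15.5 replicate 1, NSC E17.5 replicate 2, BP E13.5 replicate 1 or BP E18.5 replicate 3. The replicate number as a block changed no count by more than 1.5 times (72 lower in middle against early NSC, 50 lower in late NSC). Same-numbered libraries of the same stage correlated at -0.23 to 0.46 in their deviations, and not every pair was above 0.1, so the numbers were not used to pair them. Read depth is not known here and no interval for counting error could be given.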
